A study of Mus musculus with 16 samples.

Results

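The genes described here are 39 type I interferon-stimulated genes of the mouse, taken by symbol from a list that holds the classical antiviral members but no guanylate-binding and no Ifi200 genes. All 39 were found among the 24532 genes of the table, and all 39 passed the filter on low values that left 11335 genes for testing. They were chosen by symbol, with no measured value in the rule. By role the list holds 4 transcription factors, 10 sensors of foreign RNA or DNA, 13 effectors that act against viral entry, translation, replication or release, 7 genes of the ISG15, ubiquitin and ADP-ribose system, and 5 others.

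Type I interferons bind a receptor made of IFNAR1 and IFNAR2, whose kinases JAK1 and TYK2 phosphorylate transcription factors such as STAT2. STAT2 joins IRF9 in a complex that binds the interferon-stimulated response element (ISRE) in the promoters of antiviral genes. Dendritic cells (DCs) and monocytes keep many of these genes on at a low, tonic level in the absence of infection, and IRF7 and IRF1, which belong to the list themselves, raise transcription further.

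RNA sequencing was done on cells sorted from the spleen of C57BL/6 mice at postnatal week 12, in 16 libraries that form 8 groups of 2. From mice given 3 daily injections of GM-CSF, the granulocyte-macrophage growth factor, came DC-Xs, P-IV, P-III, P-I, cDC1s and cDC2s, and from control mice in the steady state came cDC1s and cDC2s. Conventional DCs of type 1 (cDC1s) were the XCR1+ 33D1- cells, and those of type 2 (cDC2s) the XCR1- 33D1+ cells, of a CD11c-high MHC class II+ gate, and DC-Xs were the XCR1- 33D1- cells of that gate. P-I (Ly6C+, classical monocytes in the study), P-III (Ly6C- MHC class II+ CD301b-) and P-IV (Ly6C- MHC class II+ CD301b+) were sorted as CD11b+ CD115-high cells. The study describes the DC-X gate as filled mainly by P-IV cells with few P-III cells, so these groups can hold the same cells. The study states 2 mice for each population, and the p-values measure no more than the spread between these samples. No CD115-high cells of control mice were analysed here. In such bulk libraries, fewer cells that express a gene and less RNA of it per cell cannot be told apart.

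Promoter sequence is shown for some members that the results below turn on, with the element that interferon signalling uses. Of the 39 members, 29 had a RefSeq promoter window (GRCm38.p6, 250 bases before to 50 after the start of the transcript). The ISRE core, GAAANNGAAA or on the other strand TTTCNNTTTC, was present in 13 of these 29 (44.8%), against 3.99% of all 27025 genes with a window. The gamma-activated site, TTCNNNGAA, was present in 9 of 29 (31.0%), against 9.55% of all genes. The 160 bases before the transcript start used for Ifit1 (chr19:34640729-34640888, plus strand), Ifit3 (chr19:34583369-34583528, plus strand), Bst2 (chr8:71537473-71537632, minus strand) and Irf7 (chr7:141266425-141266584, minus strand) read as follows, 5′ to 3′ on the strand of the gene, with each ISRE core in capitals.
Ifit1: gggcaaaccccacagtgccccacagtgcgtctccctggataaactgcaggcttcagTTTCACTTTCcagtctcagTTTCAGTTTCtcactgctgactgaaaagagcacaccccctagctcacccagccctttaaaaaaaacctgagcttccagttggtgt
Ifit3: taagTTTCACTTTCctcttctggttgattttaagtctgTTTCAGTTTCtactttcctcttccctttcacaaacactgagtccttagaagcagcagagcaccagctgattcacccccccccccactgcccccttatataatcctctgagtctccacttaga
Bst2: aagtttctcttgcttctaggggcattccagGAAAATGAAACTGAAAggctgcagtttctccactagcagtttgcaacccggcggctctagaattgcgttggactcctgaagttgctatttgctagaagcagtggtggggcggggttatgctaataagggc
Irf7: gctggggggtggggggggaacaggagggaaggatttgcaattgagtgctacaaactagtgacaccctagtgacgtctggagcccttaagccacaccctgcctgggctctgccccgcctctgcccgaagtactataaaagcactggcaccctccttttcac
Ifit1 and Ifit3, translation inhibitors that moved together below, each hold 2 separate cores. Bst2, which moved against them between cDC1s and cDC2s, holds 2 cores that overlap, and the Irf7 window holds none. The gene Ifit3 begins further out, at chr19:34583119, so its stretch lies inside the gene. On the minus strand Irf7 reaches out to chr7:141266499, so its stretch lies partly inside the gene. Oasl2, Cmpk2, Isg20 and Ifit2, which also differed between groups below, had a window without a core. A match is a description of letters and does not show that a factor binds there.

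Values are FPKM, the fragments of a gene scaled by its transcript length and the depth of the library. They summed to 444141 to 627472 per library, with 9388 to 10242 genes at 1 FPKM or more. The r of a replicate pair across genes was 0.947 to 0.996, and the CD115-high libraries varied less between replicates than those of the DC gate. The genes of the sort gates followed the labels. Xcr1 was at 169 and 258 FPKM in GM-CSF cDC1s and 188 and 235 FPKM in control cDC1s, Clec4a4 (33D1) at 77.5 and 72.2 FPKM in GM-CSF cDC2s and 151 and 151 FPKM in control cDC2s, and Ly6c2 at 374 and 803 FPKM in P-I. Plasmacytoid DCs express many of the members strongly. Their 8 markers summed to 10.2 to 37.6 FPKM over all libraries. Their defining gene Siglech was at most at 3.11 FPKM, in replicate 2 of DC-Xs. It was at 2.33 and 1.49 FPKM in control cDC2s, against 0 and 0.221 FPKM in control cDC1s. The part of plasmacytoid DCs in the results was not tested. Among 14 interferon alpha and beta genes in the table, 8 were listed at 0 in every library, and the highest value was 1.82 FPKM, of Ifnb1 in replicate 1 of DC-Xs.

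The mean level of the list differed more between cDC1s and cDC2s than between treated and control mice within either subset. The mean of log2(FPKM + 1) over the 39 genes was 3.95 and 4.30 in DC-Xs, 3.91 and 4.11 in P-IV, 4.36 and 4.67 in P-III and 5.07 and 5.42 in P-I. It was 3.68 and 3.53 in GM-CSF cDC1s, against 3.37 and 3.38 in control cDC1s. In cDC2s it was 4.76 and 4.63 with GM-CSF, against 4.83 and 4.83 in controls. From low to high the group means ran control cDC1s, GM-CSF cDC1s, P-IV, DC-Xs, P-III, GM-CSF cDC2s, control cDC2s and P-I. Neighbours whose libraries overlapped on this scale were P-IV with DC-Xs and P-III with GM-CSF cDC2s, and all other neighbours were apart.

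**Figure D1:**
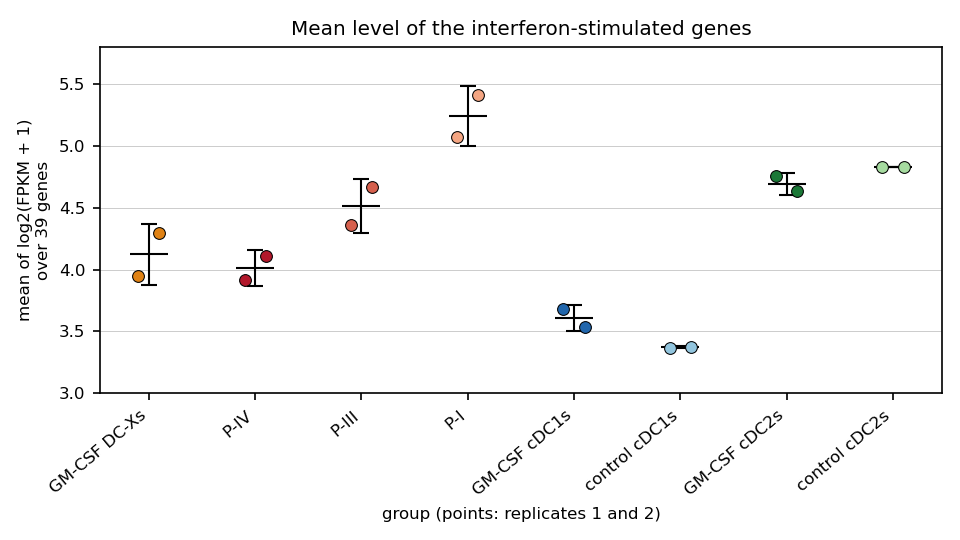
Mean of log2(FPKM + 1) over the 39 interferon-stimulated genes (vertical axis) in each library, by group (horizontal axis). Points are replicates 1 and 2, the horizontal bar is the group mean and the whiskers are 1 SD of 2 libraries. The cDC1 libraries lie lowest, between 3.37 and 3.68, and the P-I libraries highest, at 5.07 and 5.42.

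**Figure D2:**
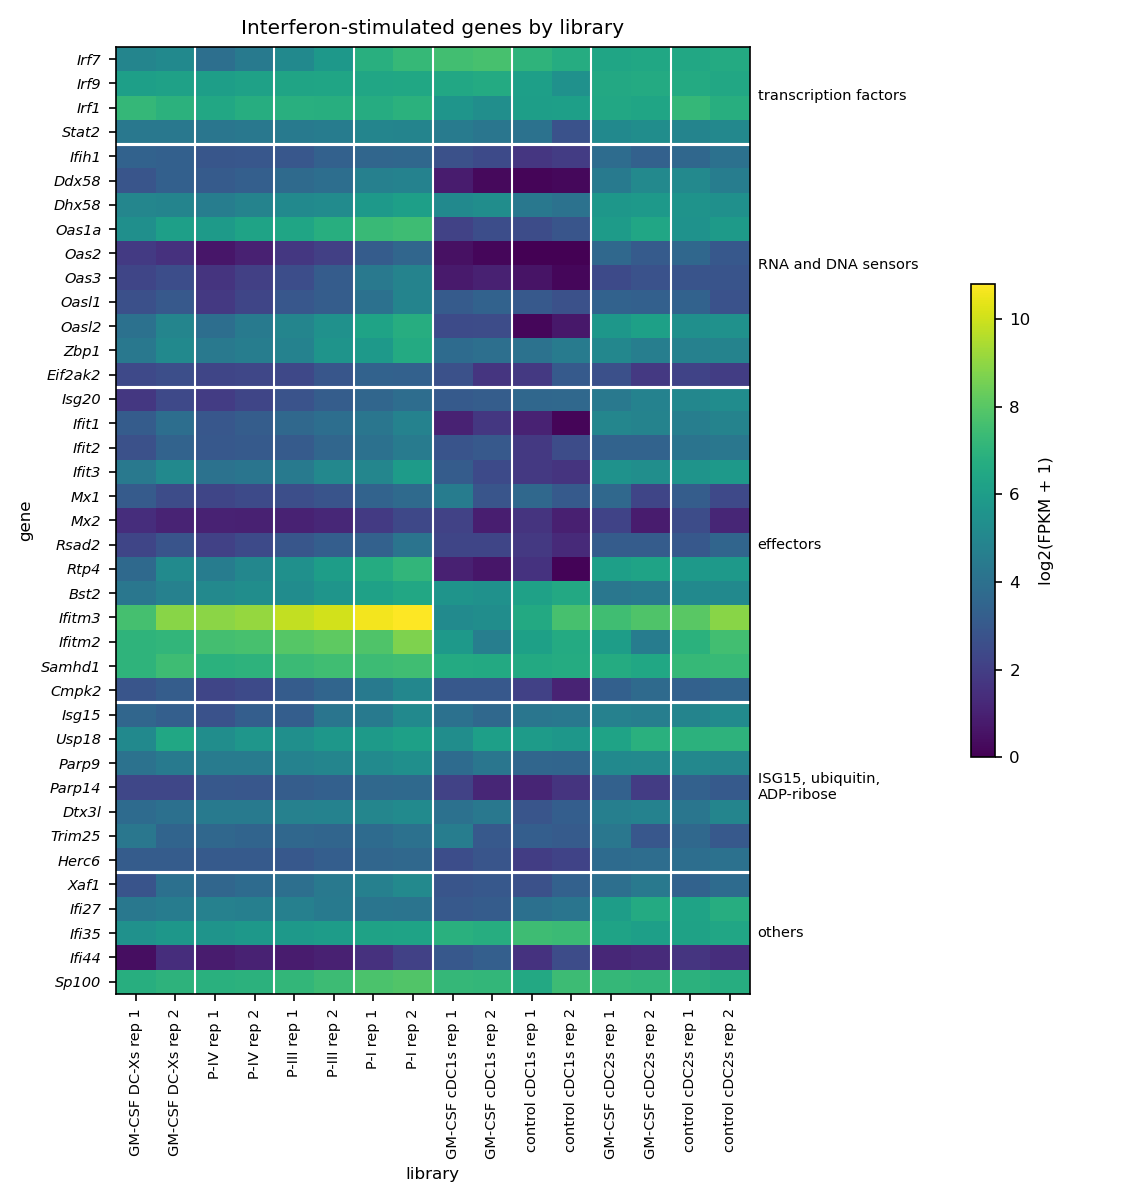
Level of each of the 39 genes as log2(FPKM + 1), shown as colour, with genes in rows grouped by role and the 16 libraries in columns. Ddx58, Oas2, Oas3, Oasl2, Ifit1 and Rtp4 are lowest in the 4 cDC1 libraries, while Irf7, Bst2 and Ifi35 do not follow that pattern.

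cDC1s and cDC2s were compared first, since they are the steady-state DC subsets of the spleen. In control mice 22 members were lower in cDC1s than in cDC2s and 2 were higher, while 15 did not pass the test. Over all 11335 genes tested, 20.6% were lower and 11.2% higher (called at an adjusted p under 0.05, limma, with at least a 2-fold change). The median log2 fold change was -1.34 over the members and -0.26 over all genes tested. By role, 7 of 10 sensors, 8 of 13 effectors, 5 of 7 genes of the ISG15, ubiquitin and ADP-ribose system, 1 of 4 transcription factors and 1 of 5 others were lower. In mice given GM-CSF 15 members were lower in cDC1s than in cDC2s and 3 were higher, against 8.80% and 6.01% of all genes. The median was -0.87 over the members and -0.10 over all genes tested.

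Ddx58 encodes RIG-I, the helicase that senses viral RNA with a free triphosphate end. It was at 0.783 and 0.195 FPKM in GM-CSF cDC1s, against 21.0 and 32.6 FPKM in GM-CSF cDC2s. In controls it was at 0.103 and 0.187 FPKM in control cDC1s, against 33.4 and 23.0 FPKM in control cDC2s. All 4 cDC1 libraries were under 1 FPKM and all 4 cDC2 libraries above 20 FPKM, and the difference passed in treated (log2 fold change -4.22, SE 0.28, adjusted p = 4.25e-07) and in control mice (log2 fold change -4.65, SE 0.28, adjusted p = 1.41e-07). Rtp4, a transmembrane protein that restrains viral RNA replication, was at 0.988 and 0.579 FPKM in GM-CSF cDC1s, against 68.7 and 75.8 FPKM in GM-CSF cDC2s, and at 1.99 and 0.0770 FPKM in control cDC1s, against 55.4 and 54.6 FPKM in control cDC2s. It showed the same separation (log2 change -5.37, adjusted p = 6.15e-06 in treated mice, log2 change -4.96, adjusted p = 9.34e-06 in control mice). Ifih1, which encodes the sensor MDA5, was lower in cDC1s as well, by a log2 fold change of -1.03 with GM-CSF and -2.00 in controls. Its call with GM-CSF was lost in 7 of 13 alternatives, among them without GM-CSF cDC1s replicate 2 (adjusted p = 0.0548) and without GM-CSF cDC2s replicate 1 (adjusted p = 0.0762).

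Genes of the oligoadenylate synthetase family gave some of the largest differences. These enzymes sense double-stranded RNA and make the messenger that activates RNase L, an activity that the relative Oasl1 lacks. Oasl2 was at 4.50 and 4.78 FPKM in GM-CSF cDC1s, against 52.2 and 70.0 FPKM in GM-CSF cDC2s, and at 0.147 and 0.629 FPKM in control cDC1s, against 41.5 and 43.2 FPKM in control cDC2s. Oas1a was at 3.45 and 4.87 FPKM in GM-CSF cDC1s, against 60.6 and 83.7 FPKM in GM-CSF cDC2s, and at 4.69 and 6.28 FPKM in control cDC1s, against 44.9 and 57.7 FPKM in control cDC2s. For both genes the cDC1 libraries lay below the cDC2 libraries. Oasl2 passed in treated (log2 change -3.45, adjusted p = 7.84e-06) and control mice (log2 change -4.99, adjusted p = 2.66e-07), and so did Oas1a (log2 change -3.82, adjusted p = 9.16e-07 in treated and log2 change -3.01, adjusted p = 5.46e-06 in control mice). Oas2 was listed at 0 for both libraries of control cDC1s, against 11.1 and 6.84 FPKM in control cDC2s, so no fold is given (adjusted p = 3.38e-06). With GM-CSF it was at 0.408 and 0.131 FPKM in GM-CSF cDC1s, against 11.5 and 7.55 FPKM in GM-CSF cDC2s (log2 change -3.04, adjusted p = 8.61e-06). Oas3 was lower in cDC1s by a log2 change of -1.69 in treated mice and -2.43 in controls, whereas Oasl1 was not called in either (log2 change -0.12 and -0.22).

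Among effectors, the Ifit genes encode proteins that bind viral RNA or block its translation. Ifit1 was at 1.06 and 2.39 FPKM in GM-CSF cDC1s, against 30.4 and 27.2 FPKM in GM-CSF cDC2s, and at 1.08 and 0.0983 FPKM in control cDC1s, against 23.4 and 27.8 FPKM in control cDC2s. Ifit3 was at 7.79 and 4.34 FPKM in GM-CSF cDC1s, against 45.2 and 39.8 FPKM in GM-CSF cDC2s, and at 2.51 and 2.06 FPKM in control cDC1s, against 47.2 and 56.5 FPKM in control cDC2s. Both were lower in cDC1s without overlap, Ifit1 by a log2 fold change of -3.49 in treated and -4.13 in control mice, and Ifit3 by -2.66 and -4.01. Ifi27, a mitochondrial protein, was at 7.06 and 7.93 FPKM in GM-CSF cDC1s, against 63.1 and 95.6 FPKM in GM-CSF cDC2s, and at 14.9 and 17.7 FPKM in control cDC1s, against 76.3 and 106 FPKM in control cDC2s, which also left the subsets apart (log2 change -3.21, adjusted p = 7.06e-07 with GM-CSF, log2 change -2.40, adjusted p = 6.4e-06 in controls). Ifit3 has a near-identical copy, Ifit3b, and how the authors' counting split shared reads is not given in the sources used here, and the same holds for Oas1a and its copies, for Ifitm2 with Ifitm3 and for Mx1 with Mx2.

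A few members ran the other way. Bst2, the surface protein tetherin that holds budding viruses on the cell, was at 47.1 and 43.0 FPKM in GM-CSF cDC1s, against 18.8 and 20.9 FPKM in GM-CSF cDC2s, and at 72.4 and 92.4 FPKM in control cDC1s, against 33.9 and 34.1 FPKM in control cDC2s. It was higher in cDC1s in treated (log2 fold change 1.15, SE 0.22, adjusted p = 0.00229) and control mice (log2 fold change 1.24, SE 0.22, adjusted p = 0.000681). Ifi35, a protein that binds the interferon-induced factor Nmi, was at 175 and 166 FPKM in control cDC1s, against 75.0 and 84.4 FPKM in control cDC2s (log2 change 1.09, adjusted p = 0.000207), and with GM-CSF at 116 and 105 FPKM in GM-CSF cDC1s, against 77.5 and 68.5 FPKM in GM-CSF cDC2s, where it was not called (log2 change 0.59). Ifi44 was at 6.79 and 8.76 FPKM in GM-CSF cDC1s, against 1.31 and 1.52 FPKM in GM-CSF cDC2s (log2 change 1.86, adjusted p = 0.00261), while in controls it was at 1.98 and 4.64 FPKM in control cDC1s, against 2.16 and 1.69 FPKM in control cDC2s and did not pass (adjusted p = 0.283). The libraries of the 2 subsets did not overlap for these genes, apart from Ifi44 in controls, where replicate 1 of cDC1s lay within the cDC2 values.

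Over both conditions, 23 of the 39 members (59.0%) had all 4 cDC1 libraries below all 4 cDC2 libraries, against 15.6% of all genes, and 3 (Irf7, Bst2 and Ifi35) had them above, against 10.0% of all genes. Of the 22 members lower in control cDC1s, 14 were also lower with GM-CSF, where 15 were lower. The same overlap was not counted over all genes, so it is not set against them. The summed 7 markers of red pulp macrophages, all of them at 1 FPKM or more in cDC2s and 5 to 6 of them in cDC1s, moved with the subsets, at 45.9 to 84.5 FPKM in GM-CSF cDC1s, against 349 to 375 in GM-CSF cDC2s, and at 33.5 to 125 in control cDC1s, against 228 to 336 in control cDC2s. Adgre1, which encodes F4/80, made up most of the difference, at 6.54 and 7.08 FPKM in GM-CSF cDC1s, against 232 and 310.0 FPKM in GM-CSF cDC2s, and at 3.95 and 1.22 FPKM in control cDC1s, against 117 and 132 FPKM in control cDC2s. Vcam1, Slc40a1, Cd5l and Axl were also higher in cDC2s in both conditions, with no overlap. In controls Slc40a1 was at 5.38 and 1.39 FPKM in cDC1s, against 52.6 and 27.1 FPKM in cDC2s. Only Hmox1 and Spic overlapped between the subsets. Hmox1 was at 35.0 and 14.6 FPKM in GM-CSF cDC1s, against 35.4 and 11.0 FPKM in GM-CSF cDC2s, and at 79.8 and 8.45 FPKM in control cDC1s, against 67.4 and 20.0 FPKM in control cDC2s. Spic was at 12.4 and 2.62 FPKM in GM-CSF cDC1s, against 16.7 and 10.7 FPKM in GM-CSF cDC2s, and at 19.2 and 11.2 FPKM in control cDC1s, against 11.5 and 9.04 FPKM in control cDC2s. The sum of 6 early stress genes such as Fos and Hspa1a, all at 1 FPKM or more in every group, also moved with the subsets, at 3739 to 5948 FPKM in GM-CSF cDC1s, against 6432 to 11488 in GM-CSF cDC2s, and at 3517 to 5406 in control cDC1s, against 11202 to 13720.5 in control cDC2s. In control mice the 8 plasmacytoid DC markers also differed, at 10.2 to 15.3 FPKM in cDC1s, against 29.6 to 37.6 FPKM in cDC2s. Their part in the result was not tested. With quantile normalization the all-gene median in controls became 0.018, and the share of higher calls among all genes called 51.5%, against 35.1% without it, and the members then numbered 23 lower and 1 higher. The call of Bst2 in controls was lost with library weights (adjusted p = 0.0729) and with the length correction, and that of Ifi35 with quantile normalization and the length correction. In controls longer transcripts had lower fold changes of cDC1s over cDC2s. The Spearman rho was -0.417 across 11232 genes and -0.262 across the 39 members. With this length trend removed 20 members were lower and 0 higher. The calls of Dhx58, Dtx3l, Parp9 and Stat2 in controls were then lost too.

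**Figure D3:**
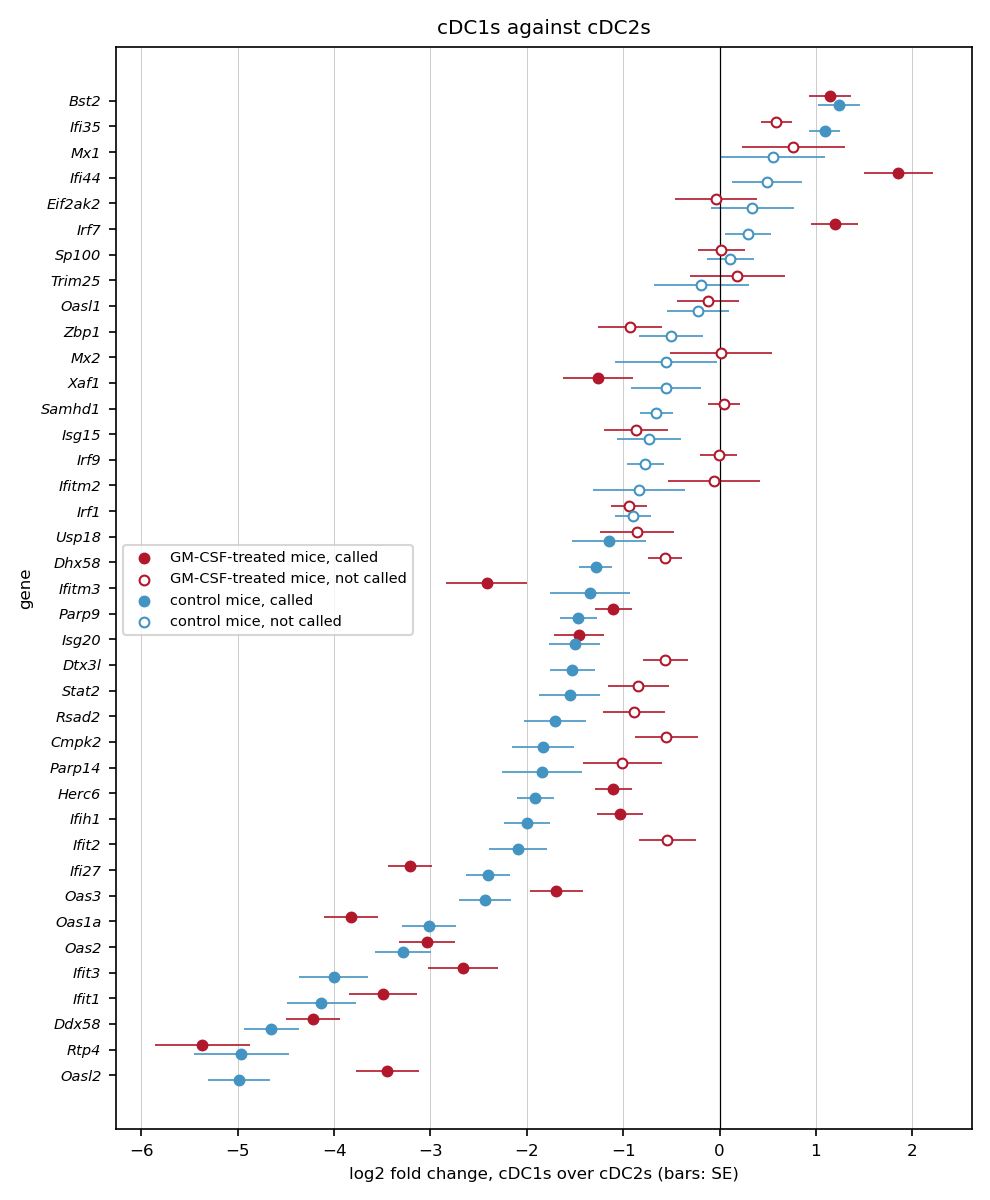
Log2 fold change of cDC1s over cDC2s (horizontal axis, bars are SE) for each of the 39 genes (vertical axis), in GM-CSF-treated mice (red) and control mice (blue). Filled points passed the test and open points did not. Most genes lie left of 0 in both, down to -5.37 for Rtp4 in treated mice, and Bst2, at 1.15 in treated and 1.24 in control mice, lies right of 0. Oas2 is listed at 0 in control cDC1s, so its blue point is a difference of log2(FPKM + 1) and not a fold.

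**Figure D4:**
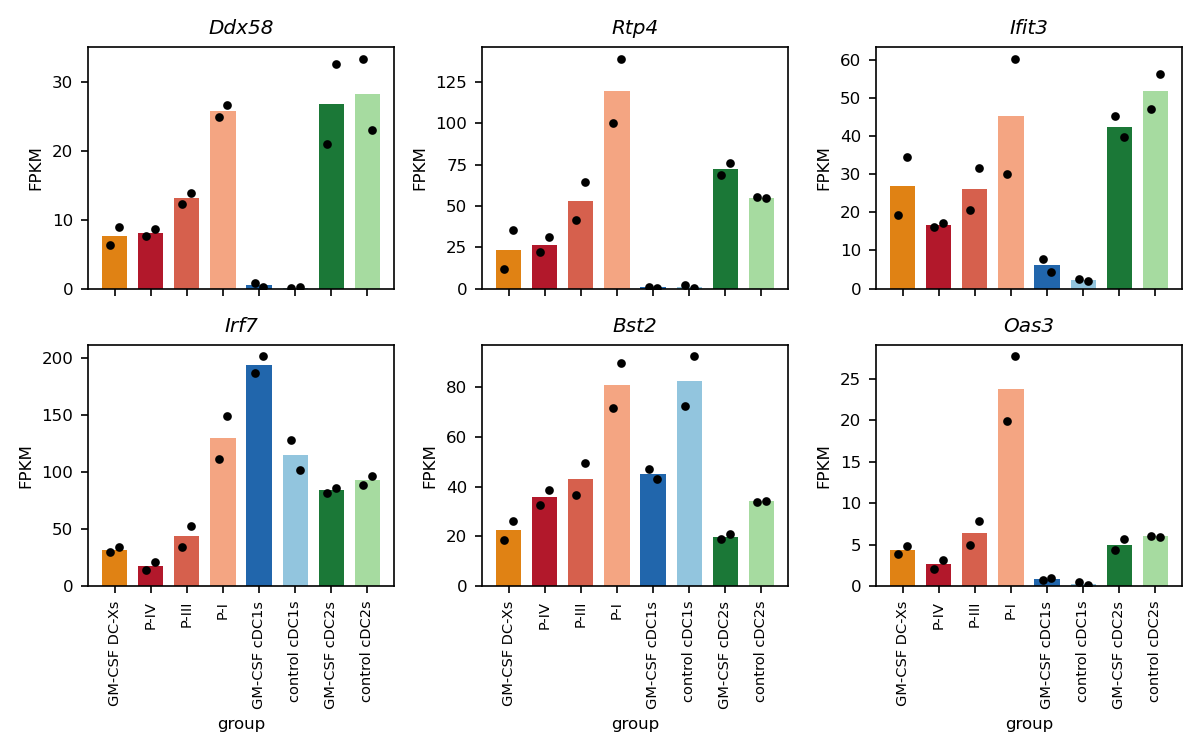
FPKM of 6 members (vertical axes start at 0) in the 8 groups. Bars are the mean of 2 libraries and points the single libraries. Ddx58, Rtp4, Ifit3 and Oas3 are low in cDC1s, Irf7 and Bst2 are not, and Irf7 is lowest in P-IV, at 14.4 and 20.8 FPKM.

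The effect of GM-CSF within each cDC subset was examined next. In cDC1s 6 members were higher after GM-CSF and 2 lower, against 10.4% and 4.41% of all genes, and the median log2 fold change was 0.35 over the members and 0.14 over all genes tested. The 6 were Oasl2, Cmpk2, Dtx3l, Ifi44, Ifit3 and Dhx58, and the 2 were Ifitm3 and Ifi27. Oasl2, at 4.50 and 4.78 FPKM in GM-CSF cDC1s, against 0.147 and 0.629 FPKM in control cDC1s, changed most (log2 fold change 2.04, SE 0.33, adjusted p = 0.00196). Its treated and control libraries did not overlap. Cmpk2, a mitochondrial nucleotide kinase encoded beside Rsad2, was at 6.80 and 6.95 FPKM in GM-CSF cDC1s, against 3.32 and 1.12 FPKM in control cDC1s (log2 change 1.38, adjusted p = 0.0106). Dtx3l, the ubiquitin ligase that works with PARP9, was at 15.3 and 19.0 FPKM in GM-CSF cDC1s, against 6.25 and 8.28 FPKM in control cDC1s (log2 change 1.14, adjusted p = 0.00602). Both lay above every control library, and so did the remaining risers. Dhx58, which encodes LGP2, a regulator of RIG-I and MDA5, was at 34.0 and 38.4 FPKM in GM-CSF cDC1s, against 19.1 and 15.8 FPKM in control cDC1s (log2 change 1.01, adjusted p = 0.00253). Ifit3 had a log2 change of 1.06 and Ifi44 of 1.09 (adjusted p = 0.0462 for Ifit3 and 0.0422 for Ifi44). Ifitm3, a membrane protein that blocks viral fusion, was at 35.7 and 38.1 FPKM in GM-CSF cDC1s, against 94.2 and 202 FPKM in control cDC1s (log2 fold change -1.88, SE 0.42, adjusted p = 0.00849), and Ifi27 was lower by a log2 change of -1.02.

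None of these 8 calls held under all alternatives, but with the compared groups alone no gene at all was called. Longer transcripts had higher fold changes here (Spearman rho 0.459 across 11232 genes and 0.629 across the 39 members; genes are not independent replicates), and with the length trend removed 3 members were called. Without control cDC1s replicate 2 there were 4 calls and without GM-CSF cDC1s replicate 2 there were 3. Without control cDC1s replicate 2 the calls of Cmpk2 (adjusted p = 0.0746), Ifit3 (0.171) and Ifitm3 (0.0725) were lost, as were those of Dhx58 and Ifi27, which fell under the 2-fold limit. Without GM-CSF cDC1s replicate 2 those of Cmpk2 (0.0556), Dtx3l (0.0503), Ifi44 (0.177), Ifit3 (0.052) and Dhx58 (under 2-fold) were lost. Leaving out the first replicate of control cDC1s ended the calls of Ifi44 (0.239), Ifit3 (0.0671) and Dtx3l (under 2-fold), and leaving out the first of GM-CSF cDC1s those of Ifi44 (0.0747), Ifit3 (0.27) and Ifi27 (under 2-fold). With quantile normalization the all-gene median here became -0.022 and the share of higher calls 54.5%, against 70.2% without it, and 2 members were then higher and 2 lower. Median-of-ratios scaling gave a share of 53.0% and the length correction 56.8%.

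In cDC2s the list moved little. No member was higher after GM-CSF and 1 was lower, against 3.21% and 2.06% of all genes (limma). The median log2 fold change was -0.11 over the members and 0.021 over all genes tested. The 1 call was Ifitm2, a relative of Ifitm3, at 64.3 and 22.3 FPKM in GM-CSF cDC2s, against 119.5 and 185 FPKM in control cDC2s (log2 fold change -1.94, SE 0.48, adjusted p = 0.0292). Its libraries did not overlap, although the 2 treated libraries lay far apart. The call was lost without control cDC2s replicate 1 (adjusted p = 0.0772), control cDC2s replicate 2 (0.114) or the second treated library (0.245, GM-CSF cDC2s replicate 2). The test of whether GM-CSF acted differently in the 2 subsets passed for 1 member, Ifit2, with a higher value in cDC1s, and for none with a lower value, against 4.24% and 2.59% of all genes. Ifit2 was at 5.98 and 7.01 FPKM in GM-CSF cDC1s, against 2.45 and 4.64 FPKM in control cDC1s, and at 9.91 and 9.87 FPKM in GM-CSF cDC2s, against 17.1 and 18.5 FPKM in control cDC2s (log2 difference of effects 1.55, adjusted p = 0.0464). The call was lost without any 1 of 7 of the 8 libraries, with adjusted p from 0.0548 without control cDC1s replicate 1 to 0.111 without GM-CSF cDC1s replicate 2, and held only without control cDC1s replicate 2. Without control cDC1s replicate 1 the difference passed for 3 members, Ifit2 not among them, and without GM-CSF cDC1s replicate 1 or 2, GM-CSF cDC2s replicate 1 or 2 or control cDC2s replicate 2 for 0. With the length trend removed the share of higher calls among all genes was 50.9%, against 62.1% without it, and no member passed.

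DC-Xs, the double-negative cells of the DC gate, were compared with both cDC subsets of treated mice. Against GM-CSF cDC1s 12 members were higher and 4 lower, beside 8.95% and 7.49% of all genes, with a median log2 fold change of 0.28 over the members and -0.058 over all genes tested. Against GM-CSF cDC2s 1 was higher and 9 were lower, beside 6.78% and 7.96%, with a median of -0.54 over the members and -0.15 over all genes tested. The comparisons share the DC-X libraries. By role, sensors were higher in 5 of 10 against cDC1s and lower in 3 of 10 against cDC2s, and effectors were higher in 5 of 13 and lower in 1 of 13 against cDC1s, and higher in 1 and lower in 3 of 13 against cDC2s.

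The 7 red pulp macrophage markers, led by Adgre1 in DC-Xs, summed to 282 to 304 FPKM in DC-Xs, with 45.9 to 84.5 in GM-CSF cDC1s and with 349 to 375 in GM-CSF cDC2s. The 6 early stress genes summed to 7176 to 10442 FPKM in DC-Xs, with 3739 to 5948 in GM-CSF cDC1s and with 6432 to 11488 in GM-CSF cDC2s. The 8 plasmacytoid DC markers summed to 12.2 to 20.5 FPKM in DC-Xs, with 14.4 to 20.3 in GM-CSF cDC1s and with 17.1 to 17.2 in GM-CSF cDC2s. Among them Siglech was at 0.949 and 3.11 FPKM in DC-Xs, with 0.682 and 0.194 in GM-CSF cDC1s and with 0.0728 and 0.0233 in GM-CSF cDC2s. The part of these markers in the result was not tested.

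Several genes lay between the subsets. Rtp4 was at 11.9 and 35.2 FPKM in DC-Xs, with 0.988 and 0.579 in GM-CSF cDC1s and with 68.7 and 75.8 in GM-CSF cDC2s. It was higher than in cDC1s (log2 change 3.61, adjusted p = 0.000159) and lower than in cDC2s (log2 change -1.76, adjusted p = 0.0218). Ddx58 was at 6.29 and 8.90 FPKM in DC-Xs, with 0.783 and 0.195 in GM-CSF cDC1s and with 21.0 and 32.6 in GM-CSF cDC2s, and showed the same order (log2 change 2.54 against cDC1s and -1.68 against cDC2s). So did Ifit1, at 7.96 and 13.9 FPKM in DC-Xs (log2 change 2.13 and -1.37), and Oasl2, at 15.4 and 29.2 FPKM (log2 change 1.98 and -1.47). For all 4 genes the DC-X libraries lay between those of both subsets, with no overlap. Oas1a was at 41.2 and 67.4 FPKM in DC-Xs, above cDC1s (log2 change 3.39, adjusted p = 2.31e-06), and overlapped with cDC2s, and Ifitm3 was at 195 and 477 FPKM in DC-Xs, with 35.7 and 38.1 in GM-CSF cDC1s and with 177 and 229 in GM-CSF cDC2s, higher than in cDC1s (log2 change 3.02, adjusted p = 0.000186). Ifitm2 was the 1 member higher than in cDC2s, at 129 and 139 FPKM in DC-Xs, against 64.3 and 22.3 FPKM in GM-CSF cDC2s (log2 change 1.79, adjusted p = 0.0173).

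Irf7 and Isg20 were lower in DC-Xs than in both subsets. Irf7, the master regulator of interferon alpha genes, was at 29.5 and 34.3 FPKM in DC-Xs, with 186 and 202 in GM-CSF cDC1s and with 82.0 and 86.4 in GM-CSF cDC2s. It was lower than in cDC1s (log2 fold change -2.57, SE 0.24, adjusted p = 6.76e-06) and than in cDC2s (log2 fold change -1.38, SE 0.24, adjusted p = 0.00133). Isg20, a 3′ to 5′ exonuclease that degrades viral RNA, was at 2.42 and 4.18 FPKM in DC-Xs, with 7.28 and 8.07 in GM-CSF cDC1s and with 19.5 and 26.7 in GM-CSF cDC2s (log2 change -1.04, adjusted p = 0.0116 against cDC1s, log2 change -2.50, adjusted p = 2.62e-05 against cDC2s). Neither gene overlapped with a cDC library. Ifi44, at 0.329 and 1.69 FPKM, and Ifi35, at 43.1 and 51.6 FPKM, were lower than in cDC1s (log2 change -2.20 for Ifi44 and -1.21 for Ifi35). Ifi27, at 19.0 and 22.3 FPKM, was lower than in cDC2s (log2 change -1.87, adjusted p = 8.59e-05), as were Oas2, at 2.59 and 1.91 FPKM (log2 change -1.68, adjusted p = 0.00117), and Isg15, the ubiquitin-like protein that is joined to viral and cellular targets, at 11.0 and 8.67 FPKM in DC-Xs, against 25.9 and 24.1 FPKM in GM-CSF cDC2s (log2 change -1.27, adjusted p = 0.015). Ifi27 and Oas2 were higher than in cDC1s (log2 change 1.35 for Ifi27 and 1.36 for Oas2). Median-of-ratios scaling gave a share of higher calls among all genes of 56.9% against cDC2s, where it was 46.0% without it, and the same counts of members. The calls against cDC1s numbered 15 or 16 whichever library was left out. Against cDC2s there were 5 without GM-CSF cDC2s replicate 2 and 6 without DC-Xs replicate 1. The call of Rtp4 against cDC2s was lost without GM-CSF cDC2s replicate 1 (adjusted p = 0.0683), GM-CSF cDC2s replicate 2 (0.0999) or DC-Xs replicate 1 (0.214), that of Oasl2 without the last of these (0.0698) or GM-CSF cDC2s replicate 2 (0.0588), and that of Ifitm2 without GM-CSF cDC2s replicate 2 (0.174) or either DC-X library (0.0676 and 0.0823). That of Ifit1 was lost in 7 of 13 alternatives, among them without GM-CSF cDC2s replicate 1 (adjusted p = 0.0741), GM-CSF cDC2s replicate 2 (adjusted p = 0.0551) or DC-Xs replicate 1 (adjusted p = 0.138), and that of Isg15 in 6 of 13, among them without GM-CSF cDC2s replicate 1 (adjusted p = 0.0691), GM-CSF cDC2s replicate 2 (adjusted p = 0.0584) or DC-Xs replicate 2 (adjusted p = 0.0944). The Irf7 call against cDC2s was lost with library weights (0.0851). The Isg20 call against cDC1s was lost without GM-CSF cDC1s replicate 2 (0.0606) or DC-Xs replicate 1 (0.114).

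The 3 CD115-high populations of treated mice were then compared with each other. By the mean over the list, the members were lowest in P-IV, intermediate in P-III and highest in P-I. In P-IV 19 members were lower than in P-I and none was higher, against 4.86% and 2.43% of all genes, with a median log2 fold change of -1.24 over the members and -0.10 over all genes tested. In P-III 6 were lower than in P-I and none higher, against 2.53% and 0.979%, with a median of -0.74 over the members and -0.07 over all genes tested. Between P-IV and P-III 1 was lower and none higher (limma), against 0.318% and 0.273%. The median was -0.42 over the members and -0.016 over all genes tested. The comparisons with P-I share its libraries. For 27 of the 39 members (69.2%) both P-IV libraries lay below both P-III libraries and these below both P-I libraries, against 15.1% of all genes, and the reverse order was met by 0 members and 8.52% of all genes.

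On the log2(FPKM + 1) scale, Irf7 had the largest difference of P-IV from P-I and of P-IV from P-III. It was at 14.4 and 20.8 FPKM in P-IV, with 34.6 and 53.0 in P-III and with 111 and 149 in P-I. The 3 populations did not overlap, and Irf7 was the 1 member called between P-IV and P-III (log2 fold change -1.26, SE 0.24, adjusted p = 0.0353). Against P-I it was lower in P-III (log2 change -1.57, adjusted p = 0.00269) and in P-IV (log2 change -2.83, adjusted p = 1.34e-05). Oas3 was at 2.11 and 3.17 FPKM in P-IV, with 4.96 and 7.82 in P-III and with 19.9 and 27.7 in P-I (log2 change -1.76, adjusted p = 0.00284 for P-III and log2 change -2.77, adjusted p = 3.69e-05 for P-IV, both against P-I). Oas2 was at 0.574 and 1.02 FPKM in P-IV, with 2.32 and 3.17 in P-III and with 7.84 and 10.9 in P-I (log2 change -1.46, adjusted p = 0.0119 for P-III and log2 change -2.53, adjusted p = 0.000116 for P-IV). Both enzymes stepped down in the same order without overlap.

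The other members called in both comparisons with P-I were Oasl1, Cmpk2 and Oasl2. Oasl1, which represses translation of Irf7 mRNA in the mouse, was at 2.46 and 3.84 FPKM in P-IV, with 6.57 and 8.26 in P-III and with 15.5 and 28.1 in P-I. It was lower in P-III (log2 change -1.39) and P-IV (log2 change -2.42, adjusted p = 0.00037). Cmpk2 was at 3.74 and 4.41 FPKM in P-IV, with 7.95 and 10.7 in P-III and with 20.7 and 31.6 in P-I (log2 change -1.38 in P-III and -2.39 in P-IV). Oasl2 was at 14.2 and 21.0 FPKM in P-IV, with 29.0 and 43.7 in P-III and with 76.0 and 106 in P-I (log2 change -1.31 in P-III and -2.31 in P-IV). For these 3 genes no library of one population reached another population. The remaining 13 members called in P-IV against P-I had log2 fold changes of -1.15 (Bst2) to -2.13 (Rtp4), and among them were the sensors Ddx58 (log2 change -1.56), Dhx58 (log2 change -1.27) and Zbp1 (log2 change -1.74), the last of which detects Z-form nucleic acid. By role, 8 of 10 sensors and 9 of 13 effectors were lower in P-IV than in P-I, against 1 of 7 genes of the ISG15, ubiquitin and ADP-ribose system (Isg15, -1.79) and 0 of 5 others. Usp18, which removes ISG15 from proteins, was at 38.5 and 49.9 FPKM in P-IV, with 40.8 and 51.7 in P-III and with 57.9 and 70.6 in P-I and was not called (log2 change -0.53 for P-IV against P-I). Ifi27 was the member with the largest value in the other direction, at 25.8 and 24.3 FPKM in P-IV, with 25.4 and 21.0 in P-III and with 17.5 and 16.8 in P-I, and was not called either (log2 change 0.52).

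**Figure D5:**
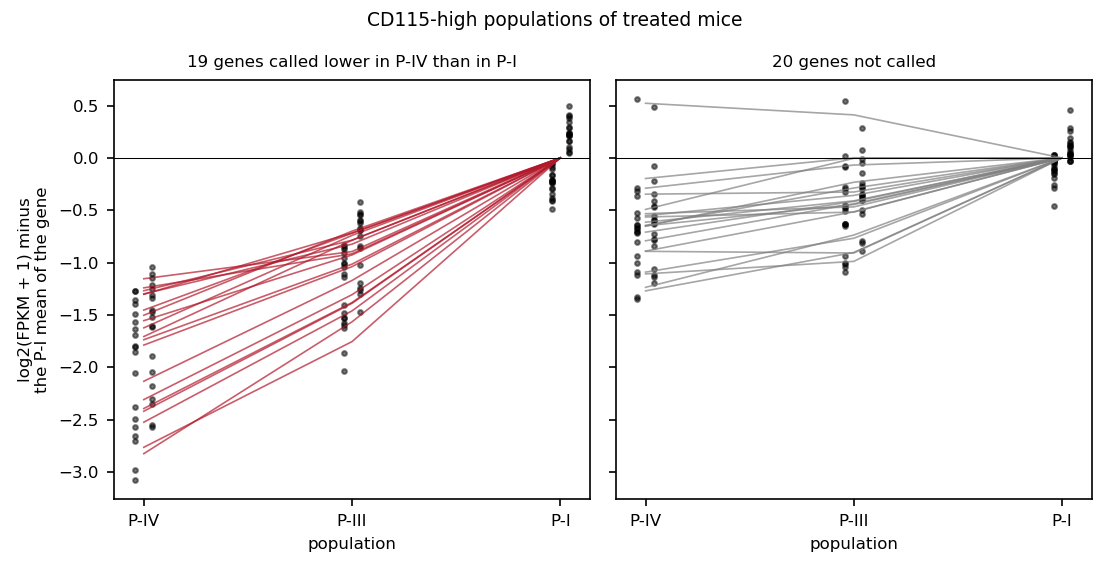
Level of each member in P-IV, P-III and P-I (horizontal axis) as log2(FPKM + 1) minus the mean of the gene in P-I (vertical axis). Lines join group means and points are single libraries, for the 19 members called lower in P-IV than in P-I (left) and the 20 not called (right). The called genes fall to between -1.15 and -2.83 in P-IV, and of the others only Ifi27 has its P-IV mean above 0.

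The count for P-IV against P-I was 9 without P-I replicate 2 and 9 without P-IV replicate 1, and Irf7, Oas2, Oas3, Oasl1, Oasl2, Cmpk2, Isg20, Ddx58 and Dhx58 were called under every alternative. The other 10 were all lost without P-I replicate 2 (adjusted p = 0.0667 to 0.431) and without P-IV replicate 1 (adjusted p = 0.0604 to 0.223). For P-III against P-I it was 0 without P-I replicate 2, 0 without P-III replicate 1 and 2 without P-III replicate 2, and no call held under all alternatives. Without P-I replicate 2 the adjusted p was 0.0518 for Irf7, 0.0536 for Oas3, 0.163 for Oas2, 0.367 for Oasl1, 0.349 for Cmpk2 and 0.391 for Oasl2. Without P-III replicate 1 it was 0.0539 for Irf7 and 0.0601 for Oas3, and 0.161 to 0.459 for the other 4. Without P-III replicate 2 it was 0.0528 to 0.113 for Oas2, Oasl1, Cmpk2 and Oasl2, and without P-I replicate 1 it was 0.0544 for Cmpk2 and 0.0901 for Oasl2. The Irf7 call between P-IV and P-III was lost without P-III replicate 1 (adjusted p = 0.0577), P-III replicate 2 (0.506), P-IV replicate 1 (0.509) or P-IV replicate 2 (0.0917). With quantile normalization the all-gene median for P-IV against P-I became 0.010 and the share of higher calls 45.4%, against 33.4% without it, and 16 members were then lower and 0 higher. With median-of-ratios scaling P-III against P-I had a share of higher calls of 39.1%, against 27.9% without it, and 3 members lower.

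Several other measures moved with these populations. The neutrophil list, 6 genes whose cells the sort excluded by Ly6G, had 5 genes at 1 FPKM or more in both P-I libraries. It summed to 0 to 0.102 FPKM in P-IV, 0 in both P-III libraries and 129 to 220.5 FPKM in P-I. Most of the sum came from S100a8 and S100a9, which classical monocytes express too. In P-I, Ngp was at 26.9 and 27.1 FPKM, Camp at 6.6 and 5.95 FPKM, Retnlg at 5 and 10.2 FPKM and Ly6g at 1.21 and 0.960 FPKM. The 4 T cell markers in the table, of cells that the sort excluded by CD3, summed to 5.97 to 6.09 FPKM in P-IV, 5.93 to 7.10 in P-III and 11.2 to 24.5 in P-I. The 6 early stress genes ran against the members, at 2762 to 2954 FPKM in P-IV, 1143 to 1752 in P-III and 412 to 951 in P-I. Within groups, replicate 2 exceeded replicate 1 for 35 of 39 members in P-IV, 36 in P-III, 36 in P-I and 29 in DC-Xs, against 45.4%, 51.5%, 45.0% and 50.2% of all genes in these groups, and for 19 to 23 members in the 4 cDC groups. The part of these measures in the result was not tested.

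P-I and P-IV were also set against GM-CSF cDC2s, the cDC subset with the higher level of the list. In P-I 8 members were higher than in cDC2s and 1 was lower, beside 9.80% and 6.24% of all genes, with a median log2 fold change of 0.56 over the members and 0.0048 over all genes tested. In P-IV 2 members were higher and 12 lower, beside 7.98% and 8.45%, with a median of -0.62 over the members and -0.092 over all genes tested. Both comparisons use the same cDC2 libraries and cross from one sort gate to the other. The 6 early stress genes summed to 2762 to 2954 FPKM in P-IV and 412 to 951 FPKM in P-I, against 6432 to 11488 FPKM in GM-CSF cDC2s, and their part in the result was not tested.

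Ifitm3 was at 482 and 557 FPKM in P-IV, with 1593 and 1803 in P-I and with 177 and 229 in GM-CSF cDC2s. Both populations were above cDC2s (log2 change 1.36, adjusted p = 0.0327 for P-IV and log2 change 3.07, adjusted p = 0.000167 for P-I). Ifitm2 was at 189 and 205 FPKM in P-IV, with 225 and 426 in P-I and with 64.3 and 22.3 in GM-CSF cDC2s (log2 change 2.34, adjusted p = 0.00341 for P-IV and log2 change 2.99, adjusted p = 0.00059 for P-I), and neither gene overlapped with cDC2s. Bst2 was at 71.7 and 89.8 FPKM in P-I, against 18.8 and 20.9 FPKM in GM-CSF cDC2s (log2 change 1.97, adjusted p = 2.93e-05), Oas3 was at 19.9 and 27.7 FPKM in P-I (log2 change 2.04, adjusted p = 0.000143 against cDC2s), and Zbp1 was at 56.4 and 96.0 FPKM in P-I, against 30.7 and 23.6 FPKM in GM-CSF cDC2s (log2 change 1.42, adjusted p = 0.00843). Oas1a (log2 change 1.22), Cmpk2 (log2 change 1.21) and Oasl1 (log2 change 1.09) were the other members higher in P-I. Ifi27 was the 1 member lower in P-I than in cDC2s (log2 change -2.12, adjusted p = 2.22e-05).

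In P-IV the members lower than in cDC2s were led by Oas2, at 0.574 and 1.02 FPKM in P-IV, against 11.5 and 7.55 FPKM in GM-CSF cDC2s (log2 change -2.54, adjusted p = 4.27e-05), Isg20, at 2.79 and 3.81 FPKM in P-IV, against 19.5 and 26.7 FPKM in GM-CSF cDC2s (log2 change -2.48, adjusted p = 2.36e-05), and Irf7 (log2 change -2.22, adjusted p = 2.87e-05). Ifit1 was at 6.68 and 8.04 FPKM in P-IV (log2 change -1.84), Oasl2 at 14.2 and 21.0 FPKM (log2 change -1.75) and Isg15 at 5.54 and 8.50 FPKM (log2 change -1.72). None of these overlapped between P-IV and cDC2s. The count was 5 for P-I without P-I replicate 2, and 9 for P-IV without P-IV replicate 1. The call of Zbp1 in P-I was lost without P-I replicate 2 (adjusted p = 0.11) or GM-CSF cDC2s replicate 2 (0.0616), that of Oas1a without P-I replicate 2 (0.0567) or GM-CSF cDC2s replicate 1 (0.0715), that of Cmpk2 without either of the same libraries (adjusted p = 0.171 and adjusted p = 0.116), that of Oasl1 without P-I replicate 2 (adjusted p = 0.277), GM-CSF cDC2s replicate 1 (adjusted p = 0.0872) or GM-CSF cDC2s replicate 2 (adjusted p = 0.0994), and that of Ifitm3 in P-IV without any 1 of the 4 libraries (0.0666 to 0.162).

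DC-Xs and P-IV, which overlap by their gates, were compared last. No member was called in either direction (limma, smallest adjusted p = 0.0946), against 0.273% of all genes higher and 1.69% lower. The log2 fold changes ran from -0.76 to 0.86 with a median of 0.20 over the members and -0.011 over all genes tested. Irf7 was at 29.5 and 34.3 FPKM in DC-Xs, against 14.4 and 20.8 FPKM in P-IV, and Bst2 was at 18.7 and 26.1 FPKM in DC-Xs, against 32.7 and 38.6 FPKM in P-IV, and in both genes the groups did not overlap. The early stress genes summed to 7176 to 10442 FPKM in DC-Xs, against 2762 to 2954 FPKM in P-IV. With the length trend removed the share of higher calls among all genes was 24.4%, against 14.0% without it.

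The 4 transcription factors of the list differed in their pattern. Irf7 was the gene with the widest range among them, with 186 and 202 FPKM in GM-CSF cDC1s and 128 and 101 in control cDC1s, 82.0 and 86.4 in GM-CSF cDC2s and 88.9 and 96.9 in control cDC2s, beside the values of the CD115-high cells and DC-Xs given above. It was higher in cDC1s than in cDC2s with GM-CSF (log2 change 1.19, adjusted p = 0.00343), a call lost with library weights (adjusted p = 0.155), and not in controls (log2 change 0.30, adjusted p = 0.336). Stat2, the partner of IRF9, was at 15.9 and 5.71 FPKM in control cDC1s, against 28.1 and 32.5 FPKM in control cDC2s (log2 change -1.55, adjusted p = 0.00177). The Stat2 difference in controls lost its call when control cDC1s replicate 2 was left out (a change under 2-fold), with the length trend removed and with the compared groups alone. With GM-CSF Stat2 was at 21.4 and 18.2 FPKM in GM-CSF cDC1s, against 34.0 and 38.5 FPKM in GM-CSF cDC2s and was not called (log2 change -0.84). In the CD115-high cells it was at 18.2 and 18.9 FPKM in P-IV, with 20.5 and 22.6 in P-III and with 29.6 and 28.3 in P-I, with 19.3 and 19.1 FPKM in DC-Xs.

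Irf1, a factor induced by both types of interferon, was highest in DC-Xs. It was at 147 and 123 FPKM in DC-Xs, with 48.4 and 39.6 in GM-CSF cDC1s and with 89.3 and 80.6 in GM-CSF cDC2s and was called against cDC1s (log2 fold change 1.60, SE 0.19, adjusted p = 4.78e-05) but not against cDC2s (log2 change 0.66, adjusted p = 0.0246, under the 2-fold limit). In the other groups it was at 89.2 and 105 FPKM in P-IV, with 112 and 110.3 in P-III, with 104 and 119 in P-I, with 66.7 and 68.0 in control cDC1s and with 147 and 108 in control cDC2s, where control cDC2s overlapped with DC-Xs. Irf9 varied least of the 4, at 66.9 and 72.1 FPKM in DC-Xs, with 65.6 and 72.6 in P-IV, with 79.5 and 81.7 in P-III and with 82.4 and 86.7 in P-I. In cDC1s it was at 88.2 and 98.1 FPKM in GM-CSF cDC1s, against 67.2 and 43.2 FPKM in control cDC1s, and in cDC2s at 91.9 and 95.5 FPKM in GM-CSF cDC2s, against 96.8 and 88.8 FPKM in control cDC2s, and it was not called in any of the 13 comparisons.

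Across all 16 libraries, the correlation of a member with the mean of the other 38 on the log2 scale was highest for Rsad2 (r = 0.95), Parp9 (0.95) and Oas3 (0.94), and lowest for Ifi35 (-0.45), Ifi44 (-0.33), Bst2 (-0.12), Mx1 (-0.061) and Irf7 (-0.0060). These are descriptions over 16 libraries of 8 groups, which share treatment and sort gate within a group, and carry no p. The group with the highest mean was P-I for 20 members, control cDC2s for 8, GM-CSF cDC1s for 4, GM-CSF cDC2s for 4, control cDC1s for 2 and DC-Xs for 1. The group with the lowest mean was control cDC1s for 18, GM-CSF cDC1s for 8 and P-IV for 7. Such counts were not made over all genes, whose median log2 fold change of control cDC1s over control cDC2s was -0.26.

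The remaining members moved less or were called in few comparisons. Among the ISG15, ubiquitin and ADP-ribose genes, the ADP-ribosyltransferase genes Parp9 and Parp14, the E3 ligase gene Herc6 and Usp18 were lower in control cDC1s than in control cDC2s (log2 change -1.47, -1.84, -1.91 and -1.15), and Parp9 and Herc6 also with GM-CSF (log2 change -1.10 and -1.10). The Usp18 call was lost in 7 of 13 alternatives, among them without control cDC1s replicate 2 (adjusted p = 0.115), control cDC2s replicate 1 (adjusted p = 0.0849) or control cDC2s replicate 2 (adjusted p = 0.0931). With GM-CSF the call of Herc6 was lost in 5 of 13 alternatives and that of Parp9 in 4, both among them without GM-CSF cDC1s replicate 1 (a change under 2-fold). Rsad2, the radical enzyme viperin, was lower in control cDC1s than in control cDC2s (log2 change -1.71) and also lower in P-IV than in P-I (adjusted p = 0.01), a call lost without P-I replicate 2 (adjusted p = 0.15) or P-IV replicate 1 (adjusted p = 0.12). Xaf1 was lower in GM-CSF cDC1s than in GM-CSF cDC2s (log2 change -1.26), a call kept in 4 of 13 alternatives and lost, among others, when GM-CSF cDC2s replicate 2 (adjusted p = 0.154) or either replicate of GM-CSF cDC1s was left out (adjusted p = 0.12 without replicate 1 and adjusted p = 0.069 without replicate 2). Mx1 and Mx2, the dynamin-like GTPases, were not called in any comparison, and neither were Trim25, which activates RIG-I, Eif2ak2, which encodes the kinase PKR, Samhd1, which depletes nucleotides, and Sp100, a nuclear body protein. Mx1 was at 7.49 and 4.71 FPKM in DC-Xs, with 22.6 and 6.22 in GM-CSF cDC1s, with 11.5 and 7.36 in control cDC1s, with 11.5 and 3.72 in GM-CSF cDC2s and with 8.20 and 4.27 in control cDC2s.

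The genes around the members were examined from a list of the pathway. Calls on these genes come from the main fit only and were not tried under the alternatives. Of 10 receptor and signalling genes, 4 were lower in control cDC1s than in control cDC2s, namely Socs3, Jak1, Jak2 and Tyk2, and none was higher. Over all genes tested 20.6% were lower and 11.2% higher. Jak1 was at 20.3 and 27.2 FPKM in control cDC1s, against 67.1 and 72.7 FPKM in control cDC2s (log2 change -1.53, adjusted p = 2.53e-05), and Jak2 at 24.4 and 23.7 FPKM in control cDC1s, against 83.4 and 90.6 FPKM in control cDC2s (log2 change -1.81, adjusted p = 0.000129). In treated mice none of the 10 was called between the subsets, against 8.80% of all genes lower in cDC1s and 6.01% higher. Tyk2 was the 1 gene of these called for GM-CSF in cDC1s, at 53.9 and 91.0 FPKM in GM-CSF cDC1s, against 19.7 and 7.51 FPKM in control cDC1s (log2 change 2.42, adjusted p = 0.00211). That is 1 of 10, near the 10.4% of all genes called higher in this comparison. Transcripts of Tyk2, Jak1 and Jak2 are 4799, 4906 and 4988 bases long. Fold changes followed transcript length in the comparisons that use control cDC1s, and the part of length in these calls was not tested. Socs3, a feedback inhibitor of cytokine receptor signalling, was at 157 and 72.6 FPKM in DC-Xs, with 14.4 and 5.94 in GM-CSF cDC1s and with 23.9 and 9.37 in GM-CSF cDC2s. It was higher in DC-Xs than in cDC1s (log2 change 3.38, adjusted p = 0.00416) and than in cDC2s (log2 change 2.74, adjusted p = 0.0158), while Socs1 had lower values in DC-Xs than in cDC1s (log2 change -1.55, adjusted p = 0.000375). The receptor chain gene Ifnar1 was at 21.8 and 25.8 FPKM in DC-Xs, with 14.1 and 14.7 in GM-CSF cDC1s, with 10.9 and 4.90 in control cDC1s, with 13.0 and 14.7 in GM-CSF cDC2s and with 13.9 and 12.2 in control cDC2s and was not called in any comparison, nor was Ifnar2.

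Of 10 genes upstream of the interferon genes, Irf8, whose product cDC1s need to develop, was higher in cDC1s than in cDC2s, at 1718 and 1684 FPKM in GM-CSF cDC1s, against 5.40 and 3.19 FPKM in GM-CSF cDC2s (log2 change 8.36, adjusted p = 1.56e-08). Tmem173, which encodes the DNA-pathway adaptor STING, was lower in cDC1s than in cDC2s, at 49.7 and 57.3 FPKM in GM-CSF cDC1s, against 113 and 149 FPKM in GM-CSF cDC2s (log2 change -1.26, adjusted p = 0.000744), and at 32.1 and 28.8 FPKM in control cDC1s, against 65.0 and 90.7 FPKM in control cDC2s (log2 change -1.31, adjusted p = 0.000311). Ikbke, a kinase that phosphorylates IRF3 and IRF7, was the 1 gene called among the CD115-high cells, at 0.821 and 1.14 FPKM in P-IV, with 4.01 and 3.54 in P-III and with 17.9 and 14.6 in P-I. It was lower in P-III (log2 change -1.85, adjusted p = 0.00706) and P-IV (log2 change -3.12, adjusted p = 7.03e-05) than in P-I, in the order of the members. Of all genes, 2.53% were lower in P-III and 4.86% in P-IV than in P-I. Ikbke was listed at 0 in both GM-CSF cDC2 libraries. The adaptor and sensor genes Mavs and Mb21d1 and the factor gene Irf3 were not called in any comparison.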

How the data were processed

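The FPKM values of the deposited gene table were made by the authors from libraries of the SMARTer Ultra low input kit. The submitters' processing notes name bcl2fastq 1.8.4, HISAT2 2.1.0, StringTie 1.3.4d and the build mm10. The table holds no counts, so depth is unknown and no counting interval can be given, and reads of near-identical copies may be split between them. Genes at FPKM 1 or more in at least 2 libraries (11335 of 24532) were taken as log2(FPKM + 1) to limma 3.58.1 in R 4.3.3, with a mean for each of 8 groups over all 16 libraries, which share 1 estimate of the spread (8 residual degrees of freedom), and a trend on level. On this scale the change of low genes is understated. A gene was called at a Benjamini-Hochberg adjusted p under 0.05 over all genes and an absolute log2 fold change of at least 1, in each of 13 comparisons.

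Per-library values are given for members among the 6 largest calls in either direction of any comparison and for the 4 transcription factors, and the others by counts and ranges. The members, lists and tests were chosen with earlier results of these data known. The fit was run on simulated libraries with known changes, for P-III against P-I only. It recovered 77 of 100 genes changed by a log2 of 1.5 and 93 of 100 changed by 3, with 12 false calls. There each gene had the same spread in all groups, whereas the median SD of replicates was 0.059 in P-IV and 0.319 in control cDC1s. The simulation therefore cannot tell how the fit does where the spread differs between groups. Alternatives were a pseudocount of 0.1, no filter, quantile and median-of-ratios scaling, library weights, a replicate block, removal of the length trend, fits to the compared groups or 1 sort gate, and leaving out each library. Figures were drawn with matplotlib 3.10.9, and tables made with pandas 2.3.3, numpy 2.4.6 and scipy 1.17.1 in Python 3.11.15. The P-II population was not analysed here. A gene of the pathway list is not reported here.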

Additional observations from a re-analysis of the deposited data

Results flagged for a closer look

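Ifit2 was the 1 member whose response to GM-CSF differed between the cDC subsets by a test of the difference itself. The log2 effect in cDC1s minus that in cDC2s was 1.55 (SE 0.42, limma adjusted p = 0.0464 over 11335 genes). It was higher in both GM-CSF cDC1 libraries than in both control cDC1 libraries, and lower in both GM-CSF cDC2 libraries than in both control cDC2 libraries. The call was lost in 15 of 17 alternatives, and over all 17 the adjusted p ranged between 0.0207 and 0.288. It held with the replicate block and without control cDC1s replicate 2. Among the alternatives that lost it were the length trend removed (adjusted p = 0.245), quantile normalization (0.132), median-of-ratios scaling (0.0799), library weights (0.288), no filter (0.102), the pseudocount of 0.1 (0.0528) and leaving out any 1 of the other 7 libraries. With library weights 4 genes in all passed this test, against 775 in the main fit. With the compared groups or the gate alone 2 passed.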

How the results depend on the processing

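None of the 127 calls on members changed direction under any alternative, and 67 passed in all of them. Counts that moved by more than 1.5 times are given next, and their causes were not tested. GM-CSF in cDC1s (8 members called) gave 4 with quantile normalization, 0 with library weights, 3 with the length trend removed, 0 with the compared groups alone and 2 with the libraries of the DC gate alone, a fit that, like the same fit for the other comparisons, was chosen after seeing the data. GM-CSF in cDC2s (1) gave 0 with no filter, library weights, the compared groups alone or the gate alone. The difference of these effects (1) gave 0 in the same 4 settings, with median-of-ratios scaling and with the length trend removed. With the compared groups alone no gene was called for GM-CSF in either subset, against 1678 (cDC1s) and 598 (cDC2s) in the main fit. The difference of effects had 2 calls over all genes with the compared groups or gate alone and 4 with library weights, against 775. A count of 0 members in these fits therefore says nothing particular to the members. DC-Xs against GM-CSF cDC2s (10) gave 6 with no filter, library weights or the compared groups alone. P-III against P-I (6) gave 3 with the pseudocount of 0.1, no filter, quantile normalization or median-of-ratios scaling. P-IV against P-III (1) gave 0 with that pseudocount, no filter, the compared groups alone or the gate alone, and 6 with library weights.

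Leaving out 1 library at a time gave 3 to 9 calls for GM-CSF in cDC1s, 0 to 1 in cDC2s, 0 to 3 for the difference of effects, 22 to 24 for control cDC1s against control cDC2s, 16 to 19 for GM-CSF cDC1s against GM-CSF cDC2s, 15 to 16 for DC-Xs against GM-CSF cDC1s, 5 to 11 for DC-Xs against GM-CSF cDC2s, 5 to 9 for P-I and 9 to 11 for P-IV against GM-CSF cDC2s, 0 to 4 for P-III against P-I, 9 to 17 for P-IV against P-I, 0 for P-IV against P-III and 0 for DC-Xs against P-IV. Samples share only a replicate number: deviations of same-numbered samples correlated between groups with an r of -0.203 to 0.671. With the replicate block the difference of effects gave 2 calls instead of 1, P-IV against GM-CSF cDC2s 15 instead of 14 and P-IV against P-I 20 instead of 19, and no other count of calls changed. With 2 libraries a group and no counts, a member that was not called is not shown to be equal.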
